A study of Homo sapiens with 62 samples.

Results

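The 48 genes described here kept a large part of their share of T>C reads when CDK9 was inhibited with NVP-2. They were chosen from SLAM-seq read tables of 29794 genes by the share of T>C reads, which is the summed T>C reads of a gene in a group divided by its summed reads. A gene was a member where log2 of its share in NVP-2 over its share in DMSO at 4 h was above -1 in both AsPC-1 and T3M-4, with a mean of at least 50 T>C reads in the DMSO libraries of each line. Of 9094 genes with enough T>C reads in both lines, 107 passed in AsPC-1 and 321 in T3M-4, and the 48 that passed in both were 0.528% of the 9094. The NVP-2 and DMSO values of the members at 4 h selected them, so those values are given as a description, without a test.

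AsPC-1 and T3M-4 are human pancreatic ductal adenocarcinoma lines, which the study used as classical and basal-like models. All libraries came from cells of genotype FKBP12-F36V-FLAG-KLF5_sgEndogenousKLF5, in which a tagged KLF5 had replaced the cells' own copy, so no group held parental cells. Cells took up 4-thiouridine (4sU) for 2 h before harvest, and conversion of T to C marks reads of RNA made while it was present. For AsPC-1 there were 5 DMSO, 5 CB-6644, 4 NVP-2, 10 dTAG and 10 NEG libraries at 4 h, and 4 DMSO and 4 CB-6644 libraries at 12 h. For T3M-4 there were 4 libraries each of DMSO, CB-6644, NVP-2, dTAG and NEG at 4 h. NVP-2 inhibits CDK9, CB-6644 inhibits the ATPases RUVBL1 and RUVBL2, dTAG libraries received dTAGv-1, a degrader of the tagged KLF5, and NEG libraries dTAG-NEG, its inactive control compound. The study describes its SLAM-seq libraries as biological replicates from independent experiments, but the labels do not tie each library to a culture, so p-values measure the spread between libraries, which may be technical.

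Libraries held 82676553 to 200298262 reads in AsPC-1 and 111132257 to 244524608 in T3M-4, of which 2240998 to 18311982 and 3714015 to 27982537 carried T>C. The all-reads column of 1 AsPC-1 dTAG library, replicate 3.1, was not usable, so shares rest on 9 dTAG libraries there. Of the basal markers, 6 of 6 were higher in every T3M-4 library than in any AsPC-1 library, although S100A2 reached 10.2 to 56.7 CPM (all reads of a gene scaled by the library total) in AsPC-1. Of the classical markers reported here, HNF4A, LGALS4 and MYO1A were higher in every AsPC-1 library, and AGR2, GATA6, TFF1 and TFF2 overlapped between the lines, with AGR2 at 30.8 to 93.6 CPM in T3M-4. All 4 AsPC-1 NVP-2 libraries are labelled batch 2 and all 5 AsPC-1 DMSO libraries at 4 h batch 1, so drug and batch cannot be told apart there, whereas both T3M-4 groups had 2 libraries in each batch.

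CDK9 is the kinase of the elongation factor P-TEFb, which releases RNA polymerase II from its pause near the start of protein-coding genes. The mitochondrial genome is copied by a separate enzyme, the polymerase POLRMT, into long RNAs that are cut at the tRNAs into rRNAs, tRNAs and messenger RNAs. Pieces of mitochondrial DNA also lie in the nuclear chromosomes as pseudogenes, and messenger RNAs of ribosomal proteins have left many processed pseudogenes, so reads of such copies can resemble each other closely. T>C reads can come from labelling, from a sequence difference between a read's source and the place it was aligned to, or from sequencing error. The study identified T>C single-base variants before counting, and which positions were set aside in each library is not known here. Neither unlabelled libraries nor spike-ins were analysed, so how often T>C reads arise without labelling is unknown here.

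Most of the 48 members fell into a few gene classes. Mitochondrially encoded genes contributed 14 of 15 with enough reads (93.3%), mitochondrial pseudogenes 8 of 9 (88.9%), ribosomal protein pseudogenes 5 of 59 (8.47%) and nuclear protein-coding genes 18 of 8737 (0.206%). The other 3 were the pseudogenes FBXW4P1 and BMS1P20 and SND1-IT1, a long non-coding RNA named as an intronic transcript of SND1.

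The sequences of 5 mitochondrial tRNA genes are shown because they include the tRNAs that kept most (MT-TH) and least (MT-TK) of their share by the smaller of both lines, the one of highest share (MT-TI), one whose DMSO libraries differed between batch labels (MT-TG) and the gene that was left out (MT-TV). Capitals mark each T, where a conversion can be read, on the plus strand of hg38 at GENCODE v44 positions. MT-TH lies at chrM:12138-12206, MT-TI at chrM:4263-4331, MT-TG at chrM:9991-10058, MT-TK at chrM:8295-8364 and MT-TV, which was not a member, at chrM:1602-1670.
MT-TH: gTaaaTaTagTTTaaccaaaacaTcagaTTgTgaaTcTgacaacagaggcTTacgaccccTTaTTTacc
MT-TI: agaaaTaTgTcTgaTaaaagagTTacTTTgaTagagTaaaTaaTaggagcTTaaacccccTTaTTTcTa
MT-TG: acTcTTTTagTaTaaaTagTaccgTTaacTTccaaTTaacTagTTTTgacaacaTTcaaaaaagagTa
MT-TK: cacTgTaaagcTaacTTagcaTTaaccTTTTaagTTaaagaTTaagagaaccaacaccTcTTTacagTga
MT-TV: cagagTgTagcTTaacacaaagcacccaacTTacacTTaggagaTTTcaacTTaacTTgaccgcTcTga
They hold 19, 22, 23, 20 and 17 T in 69, 69, 68, 70 and 69 bases, so of these 5 genes MT-TG has the most T and MT-TV the fewest. A read that runs past a gene also covers T of its neighbours, which are not counted here.

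For pseudogenes, windows of 29 bases around 1 position are shown beside their source, because they hold a T where the source has C, the difference that a T>C conversion would also give. Capitals mark the bases that differ. MTCO1P12 (chr1:632413-632441, plus strand) differs from chrM:7242-7270 by T1354C, RPS2P5 (chr12:118246891-118246919, plus strand) from the RPS2 transcript by T822C and RPL11P3 (chr10:87945919-87945947, plus strand) from the RPL11 transcript by T432C, with positions counted from 1 at the 5′ end of the pseudogene, whose base comes first.
MTCO1P12: tacaccacatgaaaTatcctatcatctgt
chrM: tacaccacatgaaaCatcctatcatctgt
RPS2P5: actgaccacctcgtTaagacccacaccag
RPS2: actgaccacctcgtCaagacccacaccag
RPL11P3: tTgcagGTaagaagTgcGggacaggctTc
RPL11: tCgcagACaagaagCgcAggacaggctGc
The MTCO1P12 and RPS2P5 windows differ from their source at that base alone, and the RPL11P3 window at several.

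The members stood far from the remaining genes on the scale that chose them. Over all 9094 genes the median log2 ratio of NVP-2 to DMSO was -3.10 in AsPC-1 and -3.01 in T3M-4, and over the 48 members -0.61 and -0.44. The median share of all genes in NVP-2 was 1.76% in AsPC-1 and 2.26% in T3M-4, and that of the members 11.5% and 13.1%. MT-TK (-0.98), ALDH3B1 (-0.99) and MBOAT2 (-0.999) lay just inside the threshold by the smaller of both lines. EBLN2 (-1.01), APOO (-1.01) and TMSB4XP4 (-1.04) lay just outside it.

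**Figure D1:**
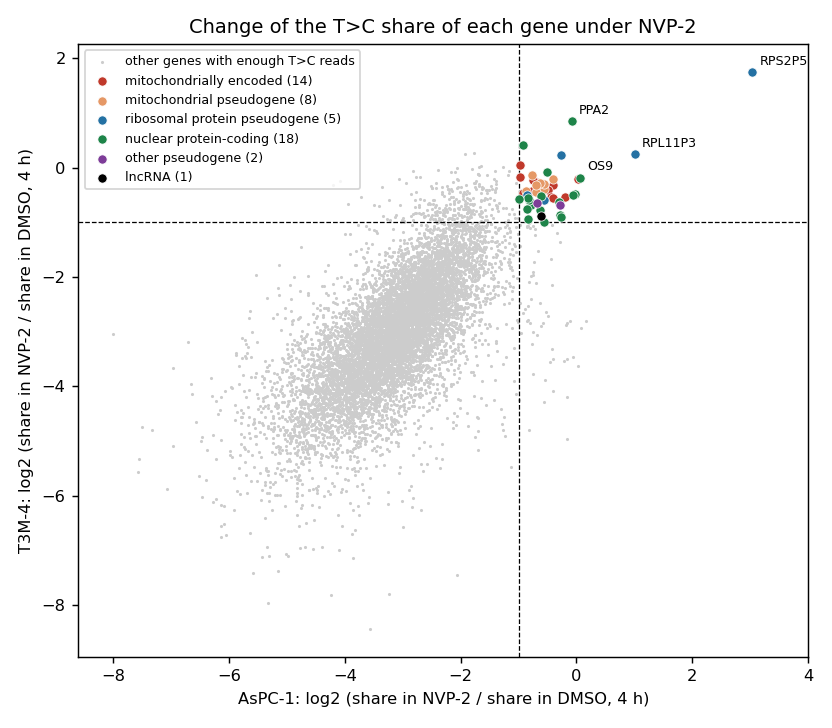
Each point is a gene with enough T>C reads, at log2 of its T>C share in NVP-2 over that in DMSO at 4 h in AsPC-1 (x axis) and T3M-4 (y axis), with dashed lines at the threshold of -1. The 48 members, coloured by gene class, lie right of and above both lines, with RPS2P5 farthest out at 3.04 and 1.75.

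In most members the share in NVP-2 was still the lowest of any group. That held for 36 of 48 members among the 7 AsPC-1 groups and for 41 of 48 among the 5 T3M-4 groups. Library by library, all NVP-2 libraries lay below all DMSO libraries at 4 h in 19 of 48 members in AsPC-1, where 97.3% of the 9094 genes did, and in 15 of 48 in T3M-4, where 95.5% did. The remaining 29 and 33 members overlapped, and in 0 members did all NVP-2 libraries lie above. These counts use the libraries that chose the members, so nothing is read from them.

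In the NEG libraries, which the choice did not use, the members' shares were spread over the range of all genes. The median share of the 48 members in NEG was 14.8% in AsPC-1 and 21.8% in T3M-4, against 15.5% and 18.5% over all 9094 genes, and 23 and 28 members lay above the median of all genes. Set against the median share of all genes in NVP-2, 37 members in AsPC-1 and 38 in T3M-4 had a NEG share above 5 times that value, as did 78.1% and 74.1% of all genes. A NEG share from 2 to 5 times that value was held by 11 members in AsPC-1 and 9 in T3M-4, among them both mitochondrial rRNAs, MTCO1P12, RPL21P4 and C12orf57 in each line. Under 2 times lay 0 members in AsPC-1 and RPS2P5 alone in T3M-4, against 3.19% and 2.62% of all genes. Whether synthesis without CDK9 or T>C reads without labelling accounts for what the members kept was not tested.

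**Figure D2:**
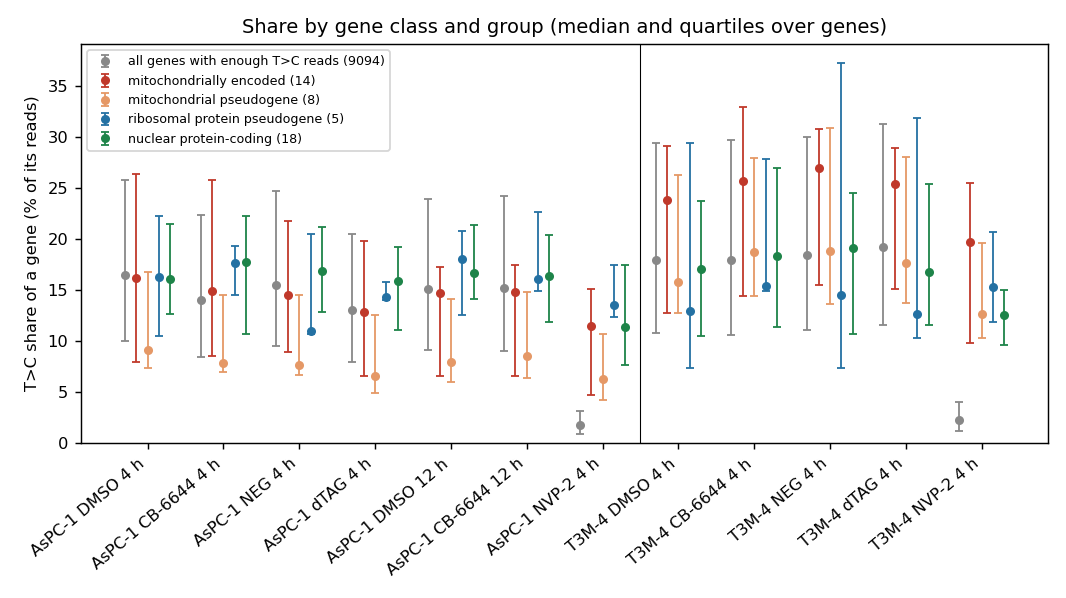
Points give the median T>C share (% of a gene's reads) over the genes of a class in each group, and bars the quartiles over those genes. All genes have medians of 1.76% and 2.26% in the NVP-2 groups, where the classes of members shown stay between 6.26% and 19.7%. The other pseudogenes, with NVP-2 medians of 24.7% and 26.3%, and SND1-IT1, with 41.7% and 47.5%, are not shown. In AsPC-1 DMSO at 4 h all genes and all members have medians of 16.4% and 16.5%.

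The mitochondrially encoded members were 2 rRNA and 12 tRNA genes, all 14 on the plus strand of chrM, the strand that carries both rRNAs. No mitochondrial messenger RNA was among the 15 genes with enough reads. The study counted reads over annotated 3′ UTR exons only, so reads elsewhere in these messengers were not counted. Of the 12 tRNA members, 5 (MT-TI, MT-TW, MT-TG, MT-TH and MT-TT) begin within 10 bases after the end of a protein-coding gene. MT-TL1 begins directly after MT-RNR2 and MT-TK 25 bases after MT-CO2. MT-TS2 and MT-TL2 follow MT-TH in a row without gaps. The 12 tRNA genes are 59 to 75 bases long, and whether reads at any of them include RNA of a neighbouring gene was not tested. The median share of the 14 genes was 16.1% in DMSO and 11.5% in NVP-2 at 4 h in AsPC-1, and 23.8% and 19.7% in T3M-4. In the other groups the median ran from 12.8% (dTAG) to 14.9% (CB-6644 at 4 h) in AsPC-1, and in T3M-4 from 25.4% (dTAG) to 26.9% (NEG), so at 4 h the median was higher in T3M-4 than in AsPC-1 in every treatment.

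MT-TH, the histidine tRNA, kept most. In AsPC-1 its share in the 5 DMSO libraries was 15.5, 14.2, 17.7, 14.4 and 14.02%, and in the 4 NVP-2 libraries 15.6, 16.4, 14.03 and 16.2%. The groups overlapped fully. In T3M-4 the MT-TH share was 28.3, 28.1, 28.7 and 30.4% in DMSO and 22.0, 18.01, 29.3 and 26.6% in NVP-2, and 3 of 4 NVP-2 libraries lay below every DMSO library.

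MT-TI, the isoleucine tRNA, had the highest share of the 14 genes. It was 32.7 ± 3.55% (SD, n = 5) in DMSO and 24.0 ± 2.97% (n = 4) in NVP-2 in AsPC-1, and 51.4 ± 3.47% and 38.6 ± 4.58% (n = 4 each) in T3M-4. In both lines the NVP-2 libraries, at most 27.9% and 45.1%, stayed under the DMSO libraries, at least 28.0% and 46.6%. MT-TL2, a leucine tRNA, had pooled shares of 28.7% and 21.6% in AsPC-1 and 47.2% and 37.9% in T3M-4. MT-TW, the tryptophan tRNA, had 29.0 ± 2.55% and 18.6 ± 4.05%, and 33.3 ± 0.695% and 29.3 ± 4.25%.

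In DMSO at 4 h the 2 rRNAs had the lowest pooled shares of the 14 genes in both lines. In AsPC-1 NVP-2, MT-TD lay below both rRNAs. MT-RNR2, the 16S rRNA, had 4.96, 4.80, 6.70, 4.73 and 4.90% in the AsPC-1 DMSO libraries and 3.09, 3.17, 5.94 and 4.13% in NVP-2, from 879919 reads or more in each library. The AsPC-1 groups overlapped through NVP-2 replicate 2.1. In T3M-4 the MT-RNR2 share was 5.54, 5.81, 4.84 and 5.26% in DMSO and 4.53, 3.17, 3.28 and 3.33% in NVP-2, so every NVP-2 library was lower. The remaining tRNA members (MT-TK, MT-TM, MT-TS2, MT-TF, MT-TT, MT-TL1 and MT-TD) had pooled NVP-2 shares from 3.51% (MT-TD) to 14.4% (MT-TM) in AsPC-1. In T3M-4 they ran from 9.14% (MT-TD) to 22.7% (MT-TM). MT-RNR1, the 12S rRNA, had 4.76 ± 0.360% and 4.18 ± 0.280% in AsPC-1 and 6.76 ± 0.592% and 4.77 ± 1.09% in T3M-4.

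MT-TG, the glycine tRNA, differed in AsPC-1 between the DMSO libraries of batch 1, all at 4 h, and those of batch 2, all at 12 h. Batch and time cannot be told apart in that comparison. Its 5 DMSO libraries of batch 1 held 24.6, 27.9, 27.4, 29.1 and 30.3%, and the 4 NVP-2 libraries of batch 2 held 18.2, 15.5, 11.8 and 10.8%. The 4 DMSO libraries at 12 h, also batch 2, held 15.7, 16.3, 13.3 and 17.4%, all within the NVP-2 range. The 4 CB-6644 libraries at 12 h, of batch 2 as well, held 14.2, 25.4, 14.6 and 14.5%, with replicate 2 inside the range of the batch 1 DMSO libraries. The NEG libraries of MT-TG held 25.8 to 30.8% in batch 1 and 24.3, 20.9, 11.1 and 17.8% in batch 2. In T3M-4 the MT-TG share at 4 h was 21.2 and 19.6% in DMSO of batch 1 and 29.6 and 29.0% in DMSO of batch 2, so higher in batch 2. The T3M-4 NVP-2 libraries held 23.6, 29.2, 23.4 and 26.5%, and the groups overlapped. With the batch 2 NEG libraries as the AsPC-1 control, all 14 mitochondrially encoded genes were still members, with a median log2 ratio of -0.29 in place of -0.65, and with DMSO at 12 h of -0.32.

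MT-TV, the valine tRNA between the rRNA genes, was the gene of this class outside the list, at log2 ratios of -2.13 in AsPC-1 and -0.27 in T3M-4. It was named after its values were seen. Its AsPC-1 share took 2 levels, at or below 4.21% in 29 libraries and from 38.3% to 56.2% in 12 libraries, and libraries of 6 of the 7 groups lay on both sides. All 4 NVP-2 libraries lay on the lower side, the highest at 2.39%, and in DMSO at 4 h the 5 libraries ran from 1.39% to 45.5%.

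The 8 mitochondrial pseudogenes are nuclear copies of mitochondrial DNA. Of these, MTND1P23, MTND2P28, MTCO1P12, MTCO2P12, MTATP6P1 and MTCO3P12 lie in order within chr1:629062-634922, and MTCYBP35 and MTND6P4 on chromosome 5. The copies on chromosome 1 were 97.95% to 99.15% identical to chrM over the aligned length, MTND6P4 95.0% and MTCYBP35 86.0%. Of the last 100 bases of each of the 8, 7 matched the mitochondrial genome at 90% identity or more over at least 80% of the window.

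Their order against the mitochondrial genes depended on how shares were combined. Summed over their reads, the 8 pseudogenes had 12.2 ± 0.632% in DMSO and 7.83 ± 0.860% in NVP-2 in AsPC-1 and 20.2 ± 2.51% and 15.4 ± 0.521% in T3M-4. The 14 mitochondrially encoded genes had lower mean summed shares, at 10.05 ± 1.402% and 6.91 ± 1.06%, and 10.6 ± 0.666% and 9.21 ± 1.55%, but the higher median over genes. The summed shares of both classes overlapped between libraries in AsPC-1 and did not in T3M-4. The median over the 8 was 9.14% in DMSO and 6.26% in NVP-2 in AsPC-1, and 15.8% and 12.6% in T3M-4. MTCO3P12 had 10.3, 8.23, 9.87, 8.75 and 7.87% in the AsPC-1 DMSO libraries and 7.08, 6.90, 5.40 and 8.11% in NVP-2. In T3M-4 the MTCO3P12 share was 14.5, 13.5, 15.1 and 15.7% in DMSO and 13.9, 10.995, 13.01 and 10.6% in NVP-2. Both lines had 1 NVP-2 library inside the DMSO range.

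MTND1P23, the mitochondrial pseudogene with most T>C reads in DMSO, had 16.8 ± 2.31% in DMSO and 11.3 ± 1.08% in NVP-2 in AsPC-1, and 32.3 ± 1.21% and 24.3 ± 1.52% in T3M-4. It holds 3 substitutions against chrM and 0 places with T where chrM has C. MTCYBP35 holds 56 such places, and its share was 8.03 ± 0.914% and 4.21 ± 0.421% in AsPC-1 and 16.9 ± 3.96% and 12.8 ± 1.00% in T3M-4. The part of such places in the shares was not tested. The ninth pseudogene with enough reads, MTATP8P1, was no member at -1.41 in AsPC-1 and -0.06 in T3M-4, and it is 97.6% identical to chrM.

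Mitochondrial genes and their pseudogenes had higher shares in T3M-4 than in AsPC-1 also in NEG libraries, which the choice did not use. In NEG all T3M-4 libraries lay above all AsPC-1 libraries in 17 of the 48 members, against 24.8% of the 9094 genes. They were 7 of 14 mitochondrially encoded genes, 7 of 8 mitochondrial pseudogenes, 1 of 5 ribosomal protein pseudogenes, 1 of 18 nuclear protein-coding genes and SND1-IT1. The reverse held for MSRB3 alone among the members and for 0.748% of all genes. The median log2 ratio of the NEG share, T3M-4 over AsPC-1, was 0.87 over the mitochondrially encoded genes and 1.104 over the mitochondrial pseudogenes. It was 0.31 over all genes and -0.01 over the 18 nuclear protein-coding members. The ratio was positive in 14 of 14 and 8 of 8 genes of these mitochondrial classes, and in 7357 of all 9094 genes. By gene, the shifts that were furthest from 0 were those of RPS2P5 (-1.67), MTCYBP35 (1.55), MT-TF (1.44) and MTND1P23 (1.25).

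MT-TF, the phenylalanine tRNA, had a NEG share of 9.24 ± 2.16% (n = 10) in AsPC-1, from 5.19% to 11.6%, and of 21.4 ± 4.67% (n = 4) in T3M-4, from 15.7% to 25.9%. MTND1P23 had 14.9 ± 1.095% and 36.2 ± 3.81% in the same groups. In neither gene did the lines overlap.

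The 5 ribosomal protein pseudogenes were RPS2P5, RPL11P3, RPL37P1, RPL21P4 and RPL34P6. Their source genes encode proteins of the ribosome. RPS2 had 2.66% in DMSO and 0.307% in NVP-2 in AsPC-1 and 4.07% and 0.483% in T3M-4, and RPL11 had 3.19% and 0.474%, and 4.32% and 0.685%. RPS2P5 is 98.75% identical to the RPS2 transcript, with 3 places that hold T where RPS2 has C, and RPL11P3 is 87.8% identical to RPL11, with 18. The median number of such places was 4 in the 5 members, from 2 to 18, and 4 in the 54 other ribosomal protein pseudogenes with enough reads. The median NEG share was 10.96% in AsPC-1 and 14.5% in T3M-4 over the members, and 3.44% and 5.44% over the others.

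RPS2P5 (chr12:118246084-118246962, plus strand) took 2 levels between libraries of the same group. In AsPC-1, 25 libraries held from 0.455% to 2.69% and 16 from 12.0% to 30.4%, with libraries of 6 of the 7 groups on both sides. The 5 DMSO libraries at 4 h, at 2.24, 1.97, 2.17, 2.095 and 2.40%, were all low, and the NVP-2 libraries held 0.455, 12.0, 24.1 and 20.3%. In T3M-4 the RPS2P5 share was 3.66, 4.12, 2.68 and 3.56% in DMSO and 17.1, 0.279, 19.8 and 0.510% in NVP-2. Its log2 ratios of 3.04 and 1.75 therefore rest on libraries at the upper level in NVP-2, while its lowest NVP-2 libraries lay under every DMSO library.

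RPL11P3 (chr10:87945502-87946024, plus strand) had a high share in most libraries. In AsPC-1 its DMSO libraries held 3.48, 36.8, 3.85, 39.3 and 41.7% and its NVP-2 libraries 50.8, 84.2, 40.4 and 40.8%. The low pair, DMSO replicates 1.1 and 1.3, stood apart from the other 39 AsPC-1 libraries, of which none was under 34.6%. In T3M-4 the RPL11P3 share was 52.5, 44.7, 41.5 and 41.1% in DMSO and 84.8, 42.4, 41.3 and 42.4% in NVP-2, so 3 of 4 NVP-2 libraries lay in the DMSO range.

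RPL37P1 had few reads and a wide spread. In NVP-2 in AsPC-1 its share was 0.197, 0, 11.01 and 99.0% in libraries of 207 to 709 reads, and in DMSO 1.98, 23.4, 12.5, 15.5 and 17.96%. The share of 0 was 0 of 709 reads, which allows up to 0.423% by counting error alone. In T3M-4 RPL37P1 had 17.8, 3.85, 1.13 and 23.4% in DMSO and 12.2, 15.6, 18.3 and 22.5% in NVP-2. Without AsPC-1 NVP-2 replicate 2.2, or without DMSO replicate 1.2, it was no longer a member.

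RPL21P4 and RPL34P6 complete the class and are given by pooled shares in DMSO and NVP-2. RPL21P4 went from 10.5% to 7.12% in AsPC-1. In T3M-4 it went from 7.35% to 4.87%, while its source RPL21 went from 3.08% to 0.450% in AsPC-1 and 4.38% to 0.648% in T3M-4. RPL34P6 went from 22.3% to 12.4% and from 29.4% to 20.7%. Its source RPL34 went from 12.4% to 4.50% and from 10.1% to 7.67%, so the source gene also lay high in T3M-4 NVP-2, against a median of 2.26% over all genes.

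**Figure D3:**
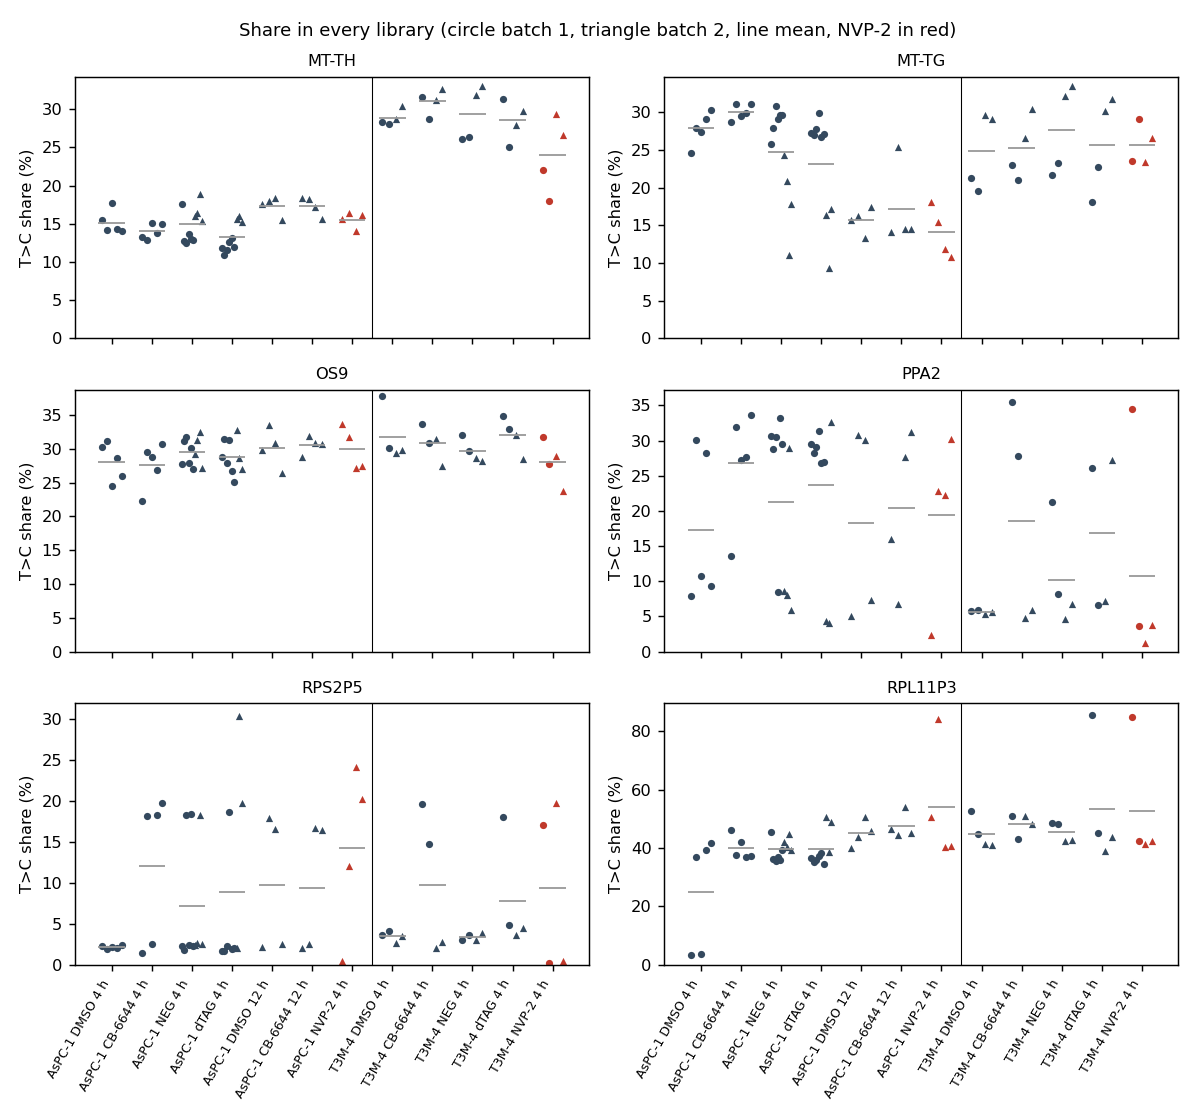
Each point is the T>C share (% of the gene's reads) of 1 gene in 1 library, by group and line. OS9 stays between 22.3% and 37.9% in every library, whereas RPS2P5 and PPA2 range widely within a group.

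The 18 nuclear protein-coding members included the ribosomal protein genes RPL31, RPL38 and RPS21, 3 of 80 such genes with enough reads, and MRPS10 of the mitochondrial ribosome, 1 of 68. Of other lists 0 genes were members: 0 of 89 nuclear respiratory chain genes, 0 of 65 translation factor genes, 0 of 43 proteasome genes, 0 of 35 immediate-early and short-lived transcripts, 0 of 25 genes of P-TEFb and its regulators, 0 of 21 snoRNA hosts and nuclear lncRNAs, 0 of 11 histone genes and 0 of 258 ZNF genes. Over all 9094 genes 0.528% were members, and 0.206% of nuclear protein-coding genes, so little can be read from 0 in lists of this size. The median share of the 18 was 16.1% in DMSO and 11.4% in NVP-2 in AsPC-1, and 17.0% and 12.5% in T3M-4. Their last 100 bases matched another place of the genome in 5 of 18 (27.8%), against 15.5% of all nuclear protein-coding genes with enough reads.

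OS9 (chr12:57693841-57728342, plus strand), a lectin of the endoplasmic reticulum that delivers misfolded glycoproteins for degradation, overlapped between DMSO and NVP-2 in both lines. In AsPC-1 it was 30.2, 31.1, 24.5, 28.6 and 25.9% in DMSO and 33.7, 31.7, 27.2 and 27.4% in NVP-2. In T3M-4 OS9 had 37.9, 30.1, 29.3 and 29.9% in DMSO and 31.7, 27.7, 28.9 and 23.7% in NVP-2. Over all 41 AsPC-1 libraries it ran from 22.3% to 33.7%, with group shares that differed by at most 1.09-fold outside NVP-2, on 39361 to 107266 reads a library. Its last 100 bases, 22% of them T, matched no second place in the search.

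PPA2 (chr4:105369077-105474067, minus strand), the inorganic pyrophosphatase of mitochondria, took low and high values. Its share in AsPC-1 was 7.92, 30.0, 10.7, 28.2 and 9.37% in DMSO and 2.31, 22.8, 22.2 and 30.2% in NVP-2. In T3M-4 PPA2 had 5.83, 5.92, 5.34 and 5.70% in DMSO and 34.5, 3.66, 1.25 and 3.74% in NVP-2. Of the T3M-4 libraries, 3 of 4 in NVP-2 lay below every DMSO library, and without replicate 1.1 PPA2 was no longer a member.

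RPL31 and RPL38, proteins of the large ribosomal subunit, overlapped between DMSO and NVP-2 in AsPC-1. RPL31 had 12.2 ± 2.82% in DMSO and 12.5 ± 5.85% in NVP-2 there, and 15.6 ± 3.62% and 11.3 ± 3.35% in T3M-4. RPL38 had 17.4 ± 1.59% and 17.4 ± 4.48%, and 18.1 ± 6.44% and 13.5 ± 7.06%. RPS21, of the small subunit, had 13.99 ± 3.82% and 7.43 ± 2.88% in AsPC-1 and 13.6 ± 1.97% and 8.38 ± 1.77% in T3M-4.

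Some members had high shares in every group. SND1-IT1 had 64.1 ± 3.18% in DMSO and 40.9 ± 6.76% in NVP-2 in AsPC-1, and 87.3 ± 3.69% and 45.8 ± 17.4% in T3M-4. FBXW4P1 had 46.7 ± 3.37% and 29.0 ± 5.08%, and 60.9 ± 5.24% and 38.6 ± 7.28%, while its source FBXW4 went from 8.33% to 0.667% and from 11.98% to 1.80%. ABCC1, a multidrug efflux pump, had 43.4 ± 8.02% and 24.1 ± 3.17%, and 76.7 ± 8.85% and 53.5 ± 8.78%, on as few as 42 reads a library. C12orf57 had the lowest pooled AsPC-1 share in NVP-2 of the 48 members, 3.403%. Its libraries held 3.58 ± 2.32% there against 7.06 ± 2.58% in DMSO, and in T3M-4 10.3 ± 3.91% against 8.27 ± 1.77%. MSRB3, a methionine sulfoxide reductase, had 20.2 ± 3.35% and 9.32 ± 3.199% in AsPC-1, and 12.9 ± 4.69% and 9.79 ± 4.83% in T3M-4.

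The other nuclear members are described by their pooled shares. ATG4B, a protease of autophagy, had 12.4% in DMSO and 8.69% in NVP-2 in AsPC-1 and 16.4% and 15.5% in T3M-4. ATP6V1A, the catalytic subunit of the vacuolar proton pump, had 22.1% and 12.8%, and 21.8% and 13.6%. NHP2, a protein of H/ACA ribonucleoproteins, and NENF, the secreted factor neudesin, had low shares, at 5.31% and 7.96% in NVP-2 in AsPC-1 and 6.49% and 4.50% in T3M-4. TRIOBP, an actin-binding protein, and KIF7, a kinesin of Hedgehog signalling, kept more in AsPC-1 (log2 ratios of -0.29 and -0.28) than in T3M-4 (-0.86 and -0.90). GALK2, a sugar kinase, MRPS10 and MBOAT2 had log2 ratios of -0.64, -0.84 and -0.999 in AsPC-1 and -0.78, -0.93 and -0.57 in T3M-4. BMS1P20 had 24.3% and 20.1%, and 21.7% and 13.6%.

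Membership depended on single libraries for some genes and not for others. Of the 48, 31 were members in each of 17 fits that left out 1 NVP-2 or DMSO library, and 30 of these also with either batch 2 control in AsPC-1 and within either batch of T3M-4. Those 30 held 11 of 14 mitochondrially encoded genes, 8 of 8 mitochondrial pseudogenes, 8 of 18 nuclear protein-coding genes (OS9, RPL31, RPL38, ATG4B, NHP2, NENF, ATP6V1A and ABCC1), RPS2P5, RPL11P3 and FBXW4P1. MRPS10 was lost in 5 of the 17 fits, MBOAT2 in 4 and MT-TG, MT-TK, KIF7 and C12orf57 in 3 each.

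The members made up a larger part of the T>C reads in NVP-2 than in DMSO. These libraries chose the members as genes whose share fell less than most, so the rise follows from the choice. Their own summed share was lower in NVP-2, at 8.47 ± 1.24% against 11.5 ± 0.852% in DMSO in AsPC-1. In T3M-4 it was 11.3 ± 1.25% against 13.8 ± 0.461%. The 48 members held 2.95 ± 1.06% of a library's T>C reads in DMSO and 15.9 ± 3.85% in NVP-2 in AsPC-1, and 3.23 ± 0.606% and 15.0 ± 2.98% in T3M-4. Of all reads they held 2.62 ± 1.07% and 3.01 ± 0.900%, and 2.87 ± 0.408% and 2.92 ± 0.467%. The 14 mitochondrially encoded genes alone held 1.72 ± 0.659% and 8.47 ± 2.16% of T>C reads in AsPC-1 and 1.75 ± 0.445% and 8.79 ± 1.86% in T3M-4. Scaled to library size, all reads of the members differed less between the groups, and the median log2 ratio of NVP-2 over DMSO was 0.15 over the members in AsPC-1 and 0.13 in T3M-4, against -0.18 and -0.09 over all genes. Fewer cells and less RNA per cell cannot be told apart in such bulk libraries.

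**Figure D4:**
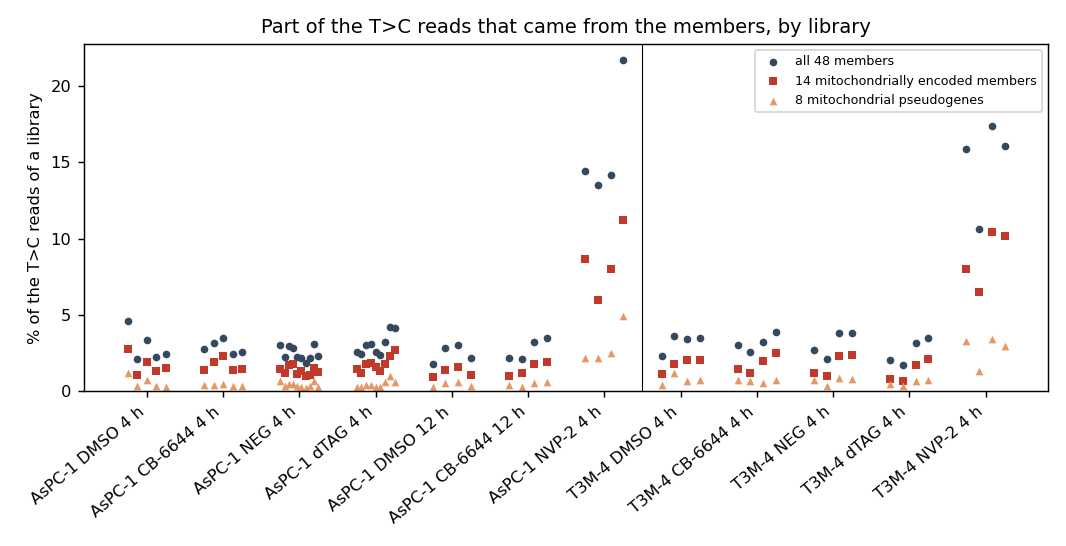
Points give the T>C reads of the members as a percentage of all T>C reads of a library, by group, for all 48 members, the 14 mitochondrially encoded genes and the 8 mitochondrial pseudogenes. The NVP-2 libraries sit between 10.6% and 21.7% for all members, above the libraries of every other group, which stay at or below 4.63%. The NVP-2 and DMSO libraries at 4 h were used to choose the members.

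Degradation of KLF5 allowed tests on libraries the choice did not use. T>C reads were compared across all genes with edgeR's quasi-likelihood test, with Benjamini-Hochberg adjusted p under 0.05 called. The T>C reads of the targeted gene, KLF5, rose after dTAG. Per library they were 158 ± 19.5 T>C CPM (T>C reads of a gene scaled by the library's T>C reads and its TMM factor) against 104 ± 19.8 in NEG in AsPC-1 (adjusted p = 0.00284 with edgeR) and 1070 ± 88.3 against 574 ± 48.7 in T3M-4 (adjusted p = 0.0258). The degrader acts on the protein, so this does not check the labels.

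In AsPC-1, 0 of 48 members were called after dTAG, against 2.4% of 11696 genes tested. At an unadjusted p under 0.05 were 4 members (RPL31, MT-RNR2, MT-TL1 and MBOAT2), against 12.1% of all genes, and DESeq2 called 0, against 2.68%. The median log2 fold change was 0.13 over the members and 0.32 over the mitochondrially encoded genes, of which 14 of 14 were above 0, against 0.03 over all genes tested. With the replicate number as a block, edgeR called MBOAT2, an acyltransferase of lysophospholipids, at a log2 fold change of -0.67 (adjusted p = 0.00114), against 7.41% of all genes. On all reads it called FBXW4P1 alone (log2 fold change -0.58, adjusted p = 0.0224), against 0.797% of all genes. With the share of T>C reads in all reads as the quantity, edgeR called 13 members, all lower after dTAG, against 40.2% of 11713 genes lower, and the share of members called, 13 of 48, was under that background. They included MTCO1P12 at a log2 difference of -0.49 (adjusted p = 0.000906) and MTND1P23 at -0.27 (adjusted p = 0.00272).

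In T3M-4, 1 of 48 members was called after dTAG, against 0.834% of 13424 genes, and at an unadjusted p under 0.05 were 4 members (ALDH3B1, MBOAT2, RPS2P5 and MSRB3), against 7.13% of all genes. ALDH3B1 (chr11:68008578-68029282, plus strand), an aldehyde dehydrogenase, fell, with 4.24 ± 1.59 T>C CPM after dTAG and 17.3 ± 2.87 in NEG (n = 4 each), which was -2.03 as a log2 fold change (SE 0.297, adjusted p = 0.012 with edgeR). Its share was 13.4, 11.1, 8.28 and 12.1% in the NEG libraries and 2.72, 5.999, 2.30 and 2.94% after dTAG, with every dTAG library below every NEG library. The test of that share did not call it (log2 difference -1.68, edgeR adjusted p = 0.0785), and 0 members were called on the share, against 0.256% of all genes, on all reads, against 0.0191%, or in batch 1 alone, against 0.272%. The call for ALDH3B1 was also lost without dTAG replicate 2.1. In AsPC-1 its log2 fold change was -0.09 (adjusted p = 0.938). With the replicate block, edgeR also called MT-RNR2 (log2 fold change -0.60, adjusted p = 0.0467), 2 members in all against 2.22% of all genes, and DESeq2 called MBOAT2 beside ALDH3B1, against 1.79% of all genes. The median log2 fold change of the mitochondrially encoded genes was -0.53, with 0 of 14 above 0, against 0.01 over all genes tested. These genes are copied together, so the 14 are not separate observations. Summed, they held 1.34 ± 0.723% of a library's T>C reads after dTAG and 1.73 ± 0.722% in NEG. The difference of this class between the lines was not tested.

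CB-6644 called 0 members with edgeR in each of its 3 comparisons. At 12 h in AsPC-1, with 0% of 12204 genes called, 1 member (C12orf57) had an unadjusted p under 0.05, against 3.88% of all genes, and the smallest adjusted p of a member was 0.998. At 4 h in AsPC-1, with 0% of 11649 genes called, 5 members (RPS2P5, RPL31, NHP2, PPA2 and MTND1P23) had an unadjusted p under 0.05, against 4.14% of all genes. At 4 h in T3M-4, with 0% of 13444 genes called, 4 members (PPA2, RPS21, RPS2P5 and TRIOBP) did, against 4.23%. DESeq2 called 0 members in all 3, against 0.147% of all genes at 12 h, 0.00579% at 4 h in AsPC-1 and 0.0355% in T3M-4. The 4 h comparisons share their DMSO libraries with the choice of the members. With the share as the quantity, edgeR called MT-RNR1, MRPS10 and RPS2P5 at 4 h in AsPC-1, against 3.31% of all genes. MT-RNR1 had a log2 difference of -0.56 (edgeR adjusted p = 0.00463) and RPS2P5 of 2.50. A low DMSO share favoured membership, so a rise against the same DMSO libraries follows in part from the choice. Nothing is read from these calls. For RPS2P5 this contrast set DMSO libraries that were all at the low level against CB-6644 libraries at 1.43, 18.2, 2.49, 18.3 and 19.7%.

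The sequence at the end of each gene was not used in the choice. Of the members' last 100 annotated bases (or the whole of a shorter gene), 30 of 48 (62.5%) had at least 1 other place in the nuclear or mitochondrial genome at 90% identity or more over 80% of the window, against 17.2% of the 9094 genes. By class these were 12 of 14 mitochondrially encoded genes, 7 of 8 mitochondrial pseudogenes and 4 of 5 ribosomal protein pseudogenes. The rest were 2 of 2 other pseudogenes and 5 of 18 nuclear protein-coding genes. Of all 59 ribosomal protein pseudogenes with enough reads 56 had such a place. The median T content of the windows was 27.4% in the members and 34.0% over all genes. How reads with several places were assigned is not given beyond the counting tool's default settings, and its part in the shares was not tested.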

How the data were processed

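Per the study's methods, the authors labelled cells with 4sU for 2 h and alkylated the RNA. With slamdunk at default settings they aligned 3′ end reads to hg38 3′ UTR exons and filtered them. They then identified T>C single-base variants and counted reads. The authors deposited raw counts, whole numbers for each gene, in 1 table of T>C reads and 1 of all reads for each line, with 29794 genes and no normalization. Versions of slamdunk and of its aligner are not given in the sources used here.

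From these counts the share (in percent) was computed for 62 libraries in 12 groups, except 1. In AsPC-1 the all-reads column of dTAG replicate 3.1 repeated the T>C column of DMSO 12 h replicate 2, left 8047 genes with more T>C reads than reads, and was not used. The tables also held 18 unnamed columns, all empty. A minimum of 50 T>C reads was set on the mean of each line's DMSO libraries at 4 h. Libraries were compared on T>C counts with edgeR 4.0.16 (filterByExpr, TMM, quasi-likelihood test, Benjamini-Hochberg adjusted p under 0.05) in R 4.3.3, fitted on the groups of each comparison and adjusted over all genes tested. DESeq2 1.42.0, the share or all reads as the quantity, other filters, batches and left-out libraries were alternatives. The test on shares set T>C counts against all reads of the same gene. Scripts were tested on simulated data. Other places of the last 100 bases were searched with blastn 2.17.0 in hg38, with annotation from GENCODE v44. Python 3.11.15 was used otherwise.

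Same-numbered libraries deviated together, with correlations above 0.1 in 10 of 10 dTAG pairs in AsPC-1 (0.264 to 0.544), 4 of 4 in T3M-4 (0.167 to 0.453), 4 of 4 CB-6644 pairs at 12 h and 4 of 4 in T3M-4, but in 4 of 5 at 4 h in AsPC-1. The control closest to a treated library carried its number in 5 of 10 dTAG libraries in AsPC-1 and 3 of 4 in T3M-4. For CB-6644 this held in 2 of 4 at 12 h, 3 of 5 at 4 h in AsPC-1 and 1 of 4 in T3M-4. Pairing by number was therefore partial. The numbers come from the sample titles.

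Named genes were the 10 members of highest ratio, the 3 on either side of the threshold, the 6 of highest and of lowest NEG share, the 4 that differed most between lines, up to 3 of most T>C reads per class of 3 or more members, and those called in a comparison. Further members were named to account for all 48. MT-TV, MT-TR, MTATP8P1 and the source genes were chosen after their values were seen. The members, lists and tests were chosen with earlier results of these data known, and the pseudogene classes after the members were seen.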

Additional observations from a re-analysis of the deposited data

Results flagged for a closer look

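Among 156 sets of 4 to 10 libraries of 1 group, examined for the summed measures and the members named by ratio or read number, 15 held a library far from the others by Dixon's criterion. Chance flags about 1 in 20 such sets. The causes were not tested.

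For the mitochondrially encoded members summed, the share was 11.1% in AsPC-1 CB-6644 replicate 1.1 at 4 h, where the others held 8.04% to 8.85%, and 12.5% in AsPC-1 DMSO replicate 1.3 at 4 h, where the others held 9.03% to 9.74%. The same DMSO library was highest for MT-RNR2, at 6.70% against 4.73% to 4.96%. MT-RNR2 was also high in T3M-4 NVP-2 replicate 1.1, at 4.53% against 3.17% to 3.33%. MT-TG held 25.4% in AsPC-1 CB-6644 replicate 2 at 12 h, where the others held 14.2% to 14.6%. MTCO3P12 held 21.5% in T3M-4 CB-6644 replicate 1.2, where the others held 17.1% to 17.6%.

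T3M-4 NVP-2 replicate 1.1 was also far above its group for RPL11P3, at 84.8% against 41.3% to 42.4%, and for PPA2, at 34.5% against 1.25% to 3.74%. T3M-4 dTAG replicate 1.1 held 85.5% for RPL11P3, where the others held 39.1% to 45.2%, and 18.1% for RPS2P5, where the others held 3.66% to 4.85%. T3M-4 DMSO replicate 1.1 held 37.9% for OS9 against 29.3% to 30.1%, and the members made up 2.33% of its T>C reads against 3.44% to 3.64%. The members made up 21.7% of the T>C reads of AsPC-1 NVP-2 replicate 2.2 against 13.5% to 14.4% in the others. That library also held 99.0% for RPL37P1, on 207 reads, where the others held 0 to 11.01%. RPL37P1 held 3.08% in AsPC-1 CB-6644 replicate 2 at 12 h, where the others held 16.8% to 19.5%.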

How the results depend on the processing

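The number of members depended on the threshold and on the AsPC-1 control. It was 11 with a log2 ratio above -0.5 and 129 above -1.5. It was 74 with the batch 2 NEG libraries as the AsPC-1 control, all 48 among them, and 92 with DMSO at 12 h, with 47 of the 48 (MBOAT2 was lost). Over 17 fits without 1 library it ran from 44 to 54, and 7 of 11 other settings stayed within 1.5 times of 48. The members' median NEG share without 1 library lay between 14.6% and 15.2% (AsPC-1) and between 21.4% and 22.7% (T3M-4). For dTAG in AsPC-1, where 0 members were called, the share gave 13 and all reads 1 (FBXW4P1), and fits without 1 library gave 0. For dTAG in T3M-4, where 1 was called, DESeq2 gave 2, the share 0, all reads 0 and batch 1 alone 0. Fits without 1 library gave 0 to 1, with 0 without dTAG replicate 2.1. With the replicate number as a block, dTAG gave 1 member in AsPC-1 (MBOAT2) and 2 in T3M-4 (ALDH3B1 and MT-RNR2), and the pairing changed no CB-6644 count. The share gave 3 for CB-6644 at 4 h in AsPC-1, and all other settings of the 3 CB-6644 comparisons gave 0. The causes of these changes were not tested. Few reads limit the precision of ABCC1, with as few as 42 a library, whereas RPL37P1 varied between libraries by more than counting error.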

Other observations

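MT-TR, the arginine tRNA, had too few T>C reads to enter the list, with a mean of 19 in the AsPC-1 DMSO libraries at 4 h and 51.25 in those of T3M-4. Its pooled share was 9.97% in DMSO and 10.5% in NVP-2 in AsPC-1, and 33.2% and 23.2% in T3M-4. The log2 ratios, 0.07 and -0.52, lay inside the range of the 14 mitochondrially encoded members in T3M-4 and just above it in AsPC-1.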
